A study of Mus musculus with 32 samples.

Results

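The comparison was between mouse prospermatogonia that carried 1 disrupted copy of Taf4b and those that carried none, in E16.5 embryos (the embryonic day). All libraries of those 2 labelled groups were taken, 9 heterozygous and 7 wildtype, which makes 16 of the 32 libraries of the series. The other libraries, from Taf4b-deficient cells and from E14.5, were not used here. Every male embryo came from a mating of parents that were both heterozygous for the Taf4b-deficiency mutation and homozygous for an Oct4-EGFP transgene, on a strain labelled C57BL/6, so both groups carried the reporter. Fetal gonads were dissociated with trypsin, and live GFP-positive cells were collected by fluorescence-activated sorting with propidium iodide as the dead-cell stain. The labels do not say which part of Taf4b the mutation changes, nor whether a library held the cells of a single embryo. P-values therefore measure the spread between libraries, some of them littermates.

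Prospermatogonia are male germ cells before birth. They have stopped dividing, repress meiosis, silence transposons through the piRNA pathway and rebuild DNA methylation before some of them found the spermatogonial stem cell pool. TFIID is the complex that recognises core promoters and helps to load RNA polymerase II. It consists of the TATA-binding protein Tbp and a set of Tbp-associated factors. Taf4b is a gonad-enriched relative of the scaffold subunit Taf4, and loss of both copies is known to impair the maintenance of the male germline.

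Per the labels, the libraries came from 6 litters, lettered here E to J. Only litter G (2 wildtype, 5 heterozygous) and litter H (1 and 1) held both genotypes. Litter E gave 2 heterozygous libraries, litter I gave 1, litter F gave 3 wildtype libraries and litter J gave 1, so for those litters litter and genotype cannot be told apart. The libraries held 19.83 to 25.66 M (mega) counts each, and 3 counts corresponded to 0.117 to 0.153 CPM (counts divided by the scaled library total). Mitochondrial genes took 2.95 to 4.70% of the counts. A principal component analysis of the 500 most variable genes put 4 libraries apart on its first axis (32.1% of the variance): wildtype replicates 4, 5 and 6 and heterozygous replicate 5 scored 11.9 to 20.1, and every other library scored 2.49 or less. Taf4b and the main counts of genes are also given without them.

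Taf4b, on chromosome 18, was measured first because it checks the labels. The 7 wildtype libraries held 250.1, 250.1, 317.7, 138.5, 127.1, 136.1 and 305.8 CPM, in replicate order. The 9 heterozygous libraries held 150, 131.8, 159.3, 142.6, 55.26, 183.4, 112.6, 136.5 and 145.7 CPM. The groups overlapped: 4 wildtype libraries lay above every heterozygous one, and the other 3 lay among the heterozygous libraries.

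The heterozygous mean, 135 ± 35.7 CPM (SD, n = 9), was 62.1% of the wildtype mean, 218 ± 82.7 CPM (SD, n = 7). On the log2(CPM + 1) scale Taf4b was lower by 0.65, that is −0.65 (p = 0.0245, exact permutation test, two-sided). In edgeR's fit across all genes the log2 difference was −0.69 ± 0.22 (SE), with a 95% interval of −1.15 to −0.23, an unadjusted p of 0.00507 and an adjusted p of 1.00 over all genes tested. It was not shown to lie within 1 on that scale, that is 2-fold (adjusted p = 0.0919, edgeR fit). The interval corresponds to a heterozygous level between 45.2 and 85.3% of wildtype. Counts over the whole gene do not show how much of this RNA came from the intact copy.

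Heterozygous replicate 5 was the lowest library at 55.26 CPM, less than the next lowest at 112.6 CPM. Without it the heterozygous mean was 145 ± 20.7 CPM (SD, n = 8), 66.6% of wildtype, and the exact permutation test gave −0.50 on the log2 scale (p = 0.0435). The wildtype group was the more variable one. Its 3 low libraries, replicates 4, 5 and 6, were the same ones that stood apart on the first axis together with heterozygous replicate 5. Leaving out any 1 of the 4 high wildtype libraries (replicates 1, 2, 3 and 7) took the permutation p to between 0.0544 and 0.0559. In edgeR, Taf4b was also within 1 without wildtype replicate 3 (adjusted p = 0.0396) or 7 (adjusted p = 0.0488). It was not within 1 when any other single library was left out.

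Within litter G the wildtype libraries held 317.7 and 138.5 CPM and the 5 heterozygous ones 55.26 to 183.4 CPM, with means of 228 ± 127 (SD, n = 2) and 127 ± 47.4 CPM (SD, n = 5). The difference on the log2 scale was −0.83 (p = 0.286, exact permutation test), in a design whose smallest possible p is 0.0952. The direction was that of all 16 libraries, and the lower wildtype littermate lay inside the heterozygous range. With litter as a covariate in edgeR the log2 difference of Taf4b was −0.87 ± 0.34 (SE, unadjusted p = 0.0202).

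**Figure D1:**
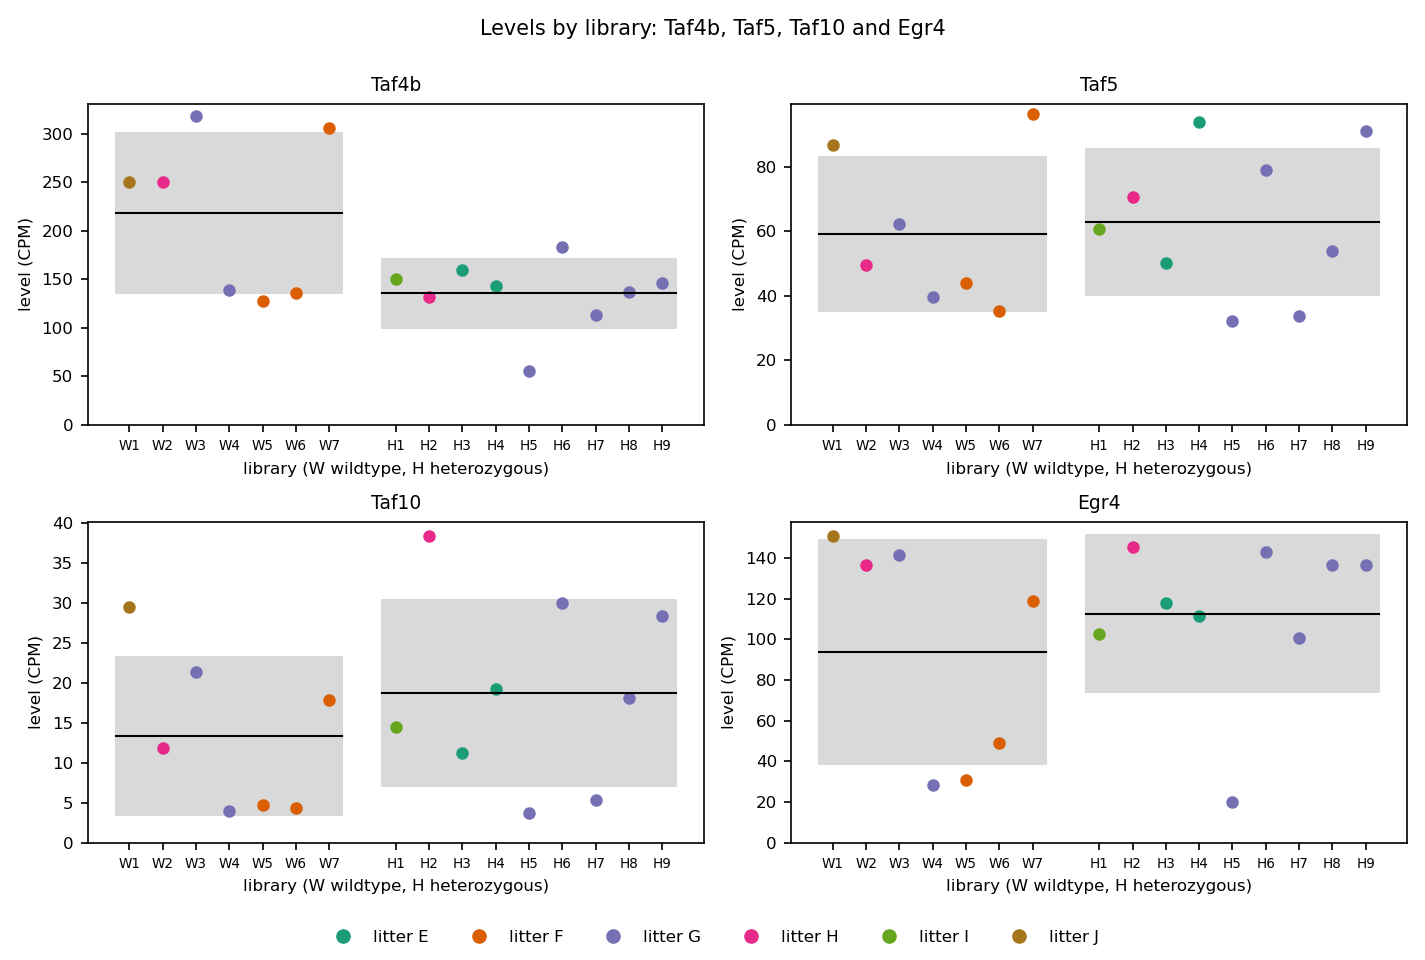
Levels in CPM (y axis, linear, from 0) of Taf4b, Taf5, Taf10 and Egr4 in each of the 7 wildtype (W) and 9 heterozygous (H) libraries, coloured by litter; the line is the group mean and the grey band 1 SD either side. Wildtype libraries 4, 5 and 6 and heterozygous library 5 are low within their genotype for all 4 genes. The heterozygous Taf4b values sit between 55.26 and 183.4 CPM.

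No gene passed the test for a difference between the genotypes. At a threshold of 0.05 on the Benjamini-Hochberg adjusted p, edgeR listed 0 of 23245 genes (0%), and the smallest adjusted p was 0.766. At an unadjusted p under 0.05 it listed 584 genes, 325 higher and 259 lower in heterozygous cells, against 1162.25 expected if no gene differed. DESeq2, run on the same counts, called 2 genes, which are described below with the other smallest p-values.

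A missed threshold does not show that a gene stayed the same, so the bound on each gene was tested itself, with one-sided tests against a difference of 1 in either direction on the log2 scale, which is 2-fold. For 20666 of the 23245 genes, 88.9%, the difference was shown to be smaller than that. For 13269 genes, 57.1%, it was also shown to be smaller than 1.5-fold. The 95% interval of the gene lay inside 1 for fewer genes, 19607, and inside 1.5-fold for 12970. A gene counted as within a bound by the adjusted one-sided tests can thus have a 95% interval that passes the bound. Over all genes the median log2 difference was −0.0013, and the 5th and 95th percentiles were −0.41 and 0.35. Without heterozygous replicate 5, 0 of 23040 genes were called, 651 had an unadjusted p under 0.05, and 20386 were within 1.

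How narrow a bound the data set on a gene followed its level. Among the 3894 genes with an average below 0 log2 CPM, 55.3% were within 1 and 0.745% within 1.5-fold. Among the 4800 genes at 2 to 4 log2 CPM these shares were 97.6 and 74.8%, and among the 704 genes at 8 or above they were 98.9 and 97.3%. The larger end of the 95% interval had a median of 1.08 in the lowest range and 0.25 in the highest. For many weakly expressed genes a 2-fold difference was not excluded at this depth and spread.

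**Figure D2:**
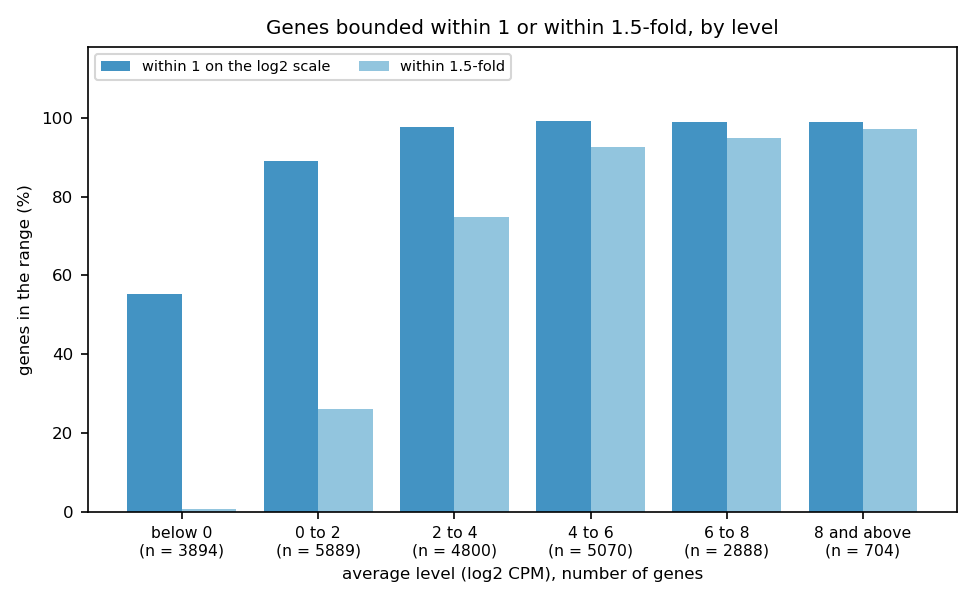
Share of genes (y axis, percent of the genes in each range) shown to differ by less than 1 on the log2 scale (dark bars) or by less than 1.5-fold (light bars) between heterozygous and wildtype cells, by average log2 CPM (x axis, number of genes in brackets). The light bars climb from 0.745 to 97.3% with level, and the dark bars are at 97.6% or more from 2 log2 CPM upward.

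**Figure D3:**
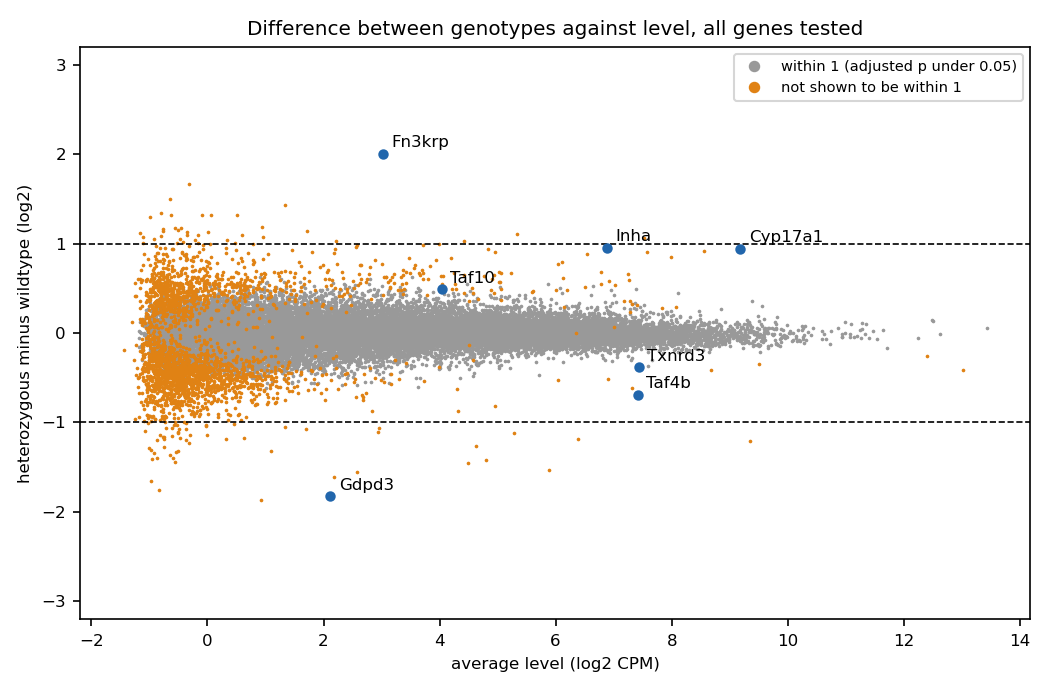
Log2 difference, heterozygous minus wildtype (y axis), of each of the 23245 genes tested against its average log2 CPM (x axis); grey points were shown to lie within 1 (dashed lines), orange points were not, and blue points are named. Fn3krp and Gdpd3 lie outside the lines at 2.01 and −1.82, and Taf4b lies between them at −0.69.

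No subunit of TFIID differed between the genotypes past the test. Of the 17 list genes besides Taf4b, which include relatives of subunits such as Tbpl1, 16 passed the filter on low counts. None of these was called, 0 had an unadjusted p under 0.05, and 15 were shown to lie within both 1 and 1.5-fold, against 88.9 and 57.1% of all genes. The TFIID genes were well expressed, with 11 of the 16 at 4 to 8 log2 CPM. The shares over all genes in the same ranges of level would give 15.8 genes within 1 and 14.9 within 1.5-fold, so the TFIID counts lay near those of genes of like level. The median log2 difference was 0.03, from −0.18 (Taf1) to 0.49 (Taf10). Taf9, which did not pass the count filter, had deposited TPM values (transcript abundance scaled for length and library total) of 28.4 ± 4.93 (SD, n = 7) in wildtype and 29.6 ± 7.22 (SD, n = 9) in heterozygous cells.

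Taf4, the ubiquitous relative whose place Taf4b can take (chr2, negative strand), ranged from 9.13 to 12.9 CPM in wildtype, with a median of 10.0, and from 6.11 to 14.3 CPM in heterozygous libraries, with a median of 10.6. The wildtype values lay within the heterozygous range. Its log2 difference was −0.00053 ± 0.15 (SE), with a 95% interval of −0.32 to 0.32, and it was shown to lie within 1.5-fold (adjusted p = 0.00185, edgeR fit). Per transcript length, Taf4 was the lowest of the TFIID genes: 3.70 ± 0.607 TPM in wildtype and 3.25 ± 1.21 TPM in heterozygous cells, where Taf4b stood at 65.6 ± 26.4 and 40.05 ± 11.7 TPM (SD, n = 7 and n = 9).

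Tbp, the subunit that binds the TATA element, had a narrow range of CPM, at 174.1 to 197.6 CPM in wildtype and 179.2 to 206.5 CPM in heterozygous libraries. Its log2 difference was 0.04 ± 0.06 (SE), and its interval reached no further than 0.16. Its deposited TPM values varied more, with 83.5 ± 14.0 in wildtype (SD, n = 7) and 92.6 ± 25.6 in heterozygous cells (SD, n = 9). Tbpl1, a Tbp relative active in male germ cells, had a log2 difference of 0.02 ± 0.07 (SE). Both stayed within bounds far narrower than 1.

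Taf1, the largest subunit, had 336 ± 44.8 CPM in wildtype (SD, n = 7) and 295 ± 36.5 CPM in heterozygous cells (SD, n = 9). Its log2 difference of −0.18 ± 0.09 had an unadjusted p of 0.0588. In litter G it was −0.25. Taf3, which reads a histone mark of active promoters, had a log2 difference of −0.16 ± 0.08, and the histone-fold subunit Taf13 had 0.25 ± 0.13. Neither passed the test. The germline relative Taf7l, at 0.07 ± 0.08, and the Taf9 relative Taf9b, at −0.14 ± 0.09, were shown to lie within 1.5-fold.

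Taf10, a histone-fold subunit shared with the SAGA coactivator, was the 1 tested TFIID gene besides Taf4b whose bound was wider than 1. Its wildtype libraries ran from 3.91 to 29.5 CPM with a median of 11.8, and its heterozygous libraries from 3.68 to 38.5 CPM with a median of 18.1. The log2 difference was 0.49 ± 0.46 (SE) with a 95% interval of −0.47 to 1.46. The low values did not follow genotype: the 4 libraries that stood apart on the first axis held 3.68 to 4.70 CPM, heterozygous replicate 7 held 5.28 CPM, and the other 11 held 11.2 to 38.5 CPM. Taf5, a core subunit, was also low in these libraries, at 32.3 to 44.0 CPM in the 4 and 33.7 CPM in heterozygous replicate 7, against 49.7 to 96.5 CPM in the rest.

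Egr4, a transcription factor of the male germline, split the libraries in the same way. It held 28.5, 30.6 and 49.2 CPM in wildtype replicates 4, 5 and 6 and 20.2 CPM in heterozygous replicate 5, against 100.8 to 150.8 CPM elsewhere. Taf4b, Taf5, Taf10 and Egr4 were thus low together in 3 wildtype and 1 heterozygous library, Taf4b against the other libraries of the same genotype. Heterozygous replicate 7, low for Taf5 and Taf10, was not among the low libraries for Egr4. What sets the libraries low for all of these genes apart was not tested.

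The 250 bases before the annotated start of Taf4, whose level stayed bounded, and of Taf10 and Egr4, which were low together, are shown from RefSeq on GRCm38.p6. They are chr2:179976647-179976896, chr7:105744339-105744588 and chr6:85513590-85513839, all on the negative strand and printed 5′ to 3′. Capitals mark CCAAT or GGGCGG, or their reverse complements ATTGG and CCGCCC.
Taf4: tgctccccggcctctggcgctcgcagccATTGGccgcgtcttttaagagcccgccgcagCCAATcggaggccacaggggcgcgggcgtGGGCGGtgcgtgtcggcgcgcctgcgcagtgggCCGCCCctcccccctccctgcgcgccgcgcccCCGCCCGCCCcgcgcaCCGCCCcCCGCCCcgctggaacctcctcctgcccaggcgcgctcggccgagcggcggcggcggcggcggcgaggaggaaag
Taf10: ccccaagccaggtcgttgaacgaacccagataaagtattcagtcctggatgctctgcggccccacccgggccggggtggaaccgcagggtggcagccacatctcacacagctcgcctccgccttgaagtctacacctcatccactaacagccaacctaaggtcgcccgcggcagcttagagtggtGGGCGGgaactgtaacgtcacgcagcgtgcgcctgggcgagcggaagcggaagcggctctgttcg
Egr4: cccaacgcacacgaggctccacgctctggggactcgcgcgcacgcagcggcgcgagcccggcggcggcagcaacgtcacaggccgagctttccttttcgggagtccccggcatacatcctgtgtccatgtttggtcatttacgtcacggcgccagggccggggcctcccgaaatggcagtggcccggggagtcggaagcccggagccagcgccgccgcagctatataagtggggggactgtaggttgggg
Searched on both strands, the Taf4 window held 2 CCAAT and 6 GGGCGG matches, 2 of which overlap, Taf10 held 1 GGGCGG match, and Egr4 held neither. The exact letters TATAAA were in none of the 3. The Egr4 window held tatataag near its end, a variant that a search for the exact letters does not count. Of 32851 promoters of the same length, 33.9% held CCAAT, 32.7% GGGCGG and 12.4% TATAAA. These matches describe the sequence and do not show that a factor binds there.

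Since TFIID acts at core promoters, the genes were also described by the exact letters TATAAA on the sense strand. The window was 40 to 21 bases before the start, and 1.87% of promoters held the letters there. Genes with only a variant, such as tatataag, count as without the motif. Promoters were matched by symbol for 14722 of 23241 tested genes with a symbol. Among the 277 genes with the motif there, 80.1% were within 1 and 1 gene had an unadjusted p under 0.05. Among the 14445 without it, 91.6% were within 1 and 363 genes, 2.51%, had an unadjusted p under 0.05. The motif genes were weakly expressed, with a median level of 1.63 log2 CPM against 3.73. At 0 to 2 log2 CPM, the shares within 1 were 90.2% of 92 genes with the motif and 89.1% of 2919 without. In the 4 other ranges under 8 log2 CPM the share was lower for motif genes. It was 39.3% of 61 against 50.8% below 0, 91.4% of 58 against 97.7% at 2 to 4, 97.6% of 41 against 99.4% at 4 to 6, and 81.25% of 16 against 99.1% at 6 to 8. Whether these shares differ was not tested. No gene of either kind was called.

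The other general transcription factors and RNA polymerase II subunits gave 21 of 21 genes within 1 and 20 of 21 within 1.5-fold, with a median log2 difference of 0.03. The shares over all genes of like level give 20.8 and 19.8. The widest bound at moderate levels was that of Gtf2a2, a TFIIA subunit, at 0.26 ± 0.13 (SE). The narrowest was that of Gtf2h1, a TFIIH subunit, at −0.01 ± 0.07. Polr2a, the catalytic subunit of RNA polymerase II, held 369 ± 61.3 CPM in wildtype (SD, n = 7) and 354 ± 62.8 CPM in heterozygous cells (SD, n = 9).

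Genes that define the germ cell were within 1 in 18 of 20 cases and within 1.5-fold in 14, with a median log2 difference of −0.01. Both counts lay below the 19.3 and 17.2 that the shares over all genes of like level give. The RNA helicase Ddx4 stood at 934.4 to 1146 CPM in wildtype and 824.2 to 1115 CPM in heterozygous libraries, and the RNA-binding translational regulator Dazl had a log2 difference of −0.03 ± 0.09. Their groups overlapped. Dppa3, a maternal and germ cell chromatin factor, was among the 2 genes not bounded within 1, at 0.28 ± 0.41. Its wildtype libraries spread from 85.8 to 493.4 CPM and its heterozygous libraries from 74.5 to 572.4 CPM. In litter G the 2 wildtype libraries held 199.4 and 115.8 CPM and the 5 heterozygous ones 215.9 to 363.5 CPM, and the log2 difference there was 0.82 ± 0.25 (SE) with an unadjusted p of 0.00924 and an adjusted p of 1.00 in edgeR. Sox17, the other one, was near the floor at 0.497 ± 0.309 CPM in wildtype (SD, n = 7).

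Kit, the stem cell factor receptor, and the RNA-binding protein Elavl2 had log2 differences of −0.31 ± 0.15 and −0.18 ± 0.07 (SE). In its list, Elavl2 alone had an unadjusted p under 0.05, and it was not called. Both were shown to lie within 1, and both were named after their values were seen. In litter G the log2 differences were −0.57 for Kit and −0.32 for Elavl2.

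Of the genes of male fate and mitotic arrest, 15 of 16 were within 1 and 8 within 1.5-fold, where genes of like level would give 15.3 and 11.1. Nanos2, the RNA-binding protein that drives male germ cell fate, ranged from 5.68 to 27.7 CPM in wildtype and from 3.68 to 31.7 CPM in heterozygous libraries, a log2 difference of 0.03 ± 0.37. The ranges nearly coincided. Lefty2, an inhibitor of Nodal signalling, was not bounded within 1, at 0.55 ± 0.40. The cell cycle inhibitor Cdkn1c had 0.41 ± 0.22 and did not pass the test.

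The piRNA pathway was the list with the most abundant genes, and 22 of 22 were within 1 and 21 within 1.5-fold. These counts lay near the 21.8 and 21.2 that genes of like level would give. Its median log2 difference was −0.07, with 16 genes lower and 6 higher. Mael, a germ granule protein of transposon silencing, stood at 1556 to 1843 CPM in wildtype and 1502 to 1892 CPM in heterozygous libraries. The PIWI proteins Piwil2 and Piwil4 had log2 differences of −0.15 ± 0.12 and −0.09 ± 0.08 (SE). Gtsf1, a cofactor of PIWI proteins, was the 1 gene not bounded within 1.5-fold, at 0.25 ± 0.18.

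All 15 genes of DNA methylation were within 1.5-fold, where genes of like level would give 13.2, with a median log2 difference of −0.04. The de novo methyltransferase Dnmt3a had 0.01 ± 0.09, and its cofactor Dnmt3l, which is high in prospermatogonia, had −0.06 ± 0.12. Dnmt3l ranged from 267.1 to 496.8 CPM in wildtype and from 257.7 to 458.4 CPM in heterozygous libraries. Of 28 histone modifiers, 28 were within 1 and 26 within 1.5-fold, near the 27.7 and 26.5 that genes of like level would give. The H3K9 methyltransferase Ehmt1 held 43.5 ± 3.80 CPM in wildtype (SD, n = 7) and 43.4 ± 4.50 CPM in heterozygous cells (SD, n = 9).

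The list of spermatogonial stem cell genes, relevant because these cells are its source, had 17 of 18 genes within 1 and 8 within 1.5-fold, where the shares over all genes of like level give 16.6 and 12.2. Of the 18 genes, 5 averaged below 2 log2 CPM. The list had a median log2 difference of −0.0046. Gfra1, the receptor for the niche factor GDNF, had −0.08 ± 0.13 and was within 1.5-fold. Zbtb16, the transcription factor PLZF, had −0.38 ± 0.24 at 4.27 ± 1.84 CPM in wildtype (SD, n = 7) and 3.28 ± 0.801 CPM in heterozygous cells (SD, n = 9). Egr4, whose split is described above, had 0.27 ± 0.36.

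Pluripotency genes were within 1 in 18 of 20 tested cases, and Sox2 and Klf2 were the exceptions. Within 1.5-fold were 12, and genes of like level would give 19.4 and 15.6. Pou5f1, whose promoter drives the sorting reporter, had 44.2 ± 12.8 CPM in wildtype (SD, n = 7) and 46.7 ± 9.98 CPM in heterozygous cells (SD, n = 9), a log2 difference of 0.08 ± 0.16. Meiotic genes, which male germ cells hold back at this age, were within 1 in 25 of 25 cases and within 1.5-fold in 21. At like level 24.7 and 22.3 would be. Stra8, the retinoic acid-induced gatekeeper of meiosis, had 0.35 ± 0.29, and Hormad1, a chromosome axis protein, −0.00088 ± 0.08. Mitotic genes gave 26 of 26 within 1 and 24 within 1.5-fold, against 25.7 and 23.6 at like level. Mcm6 of the replicative helicase had −0.01 ± 0.08. Genes of oxidative phosphorylation gave 20 of 20 and 19, against 19.8 and 19.2 at like level.

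**Figure D4:**
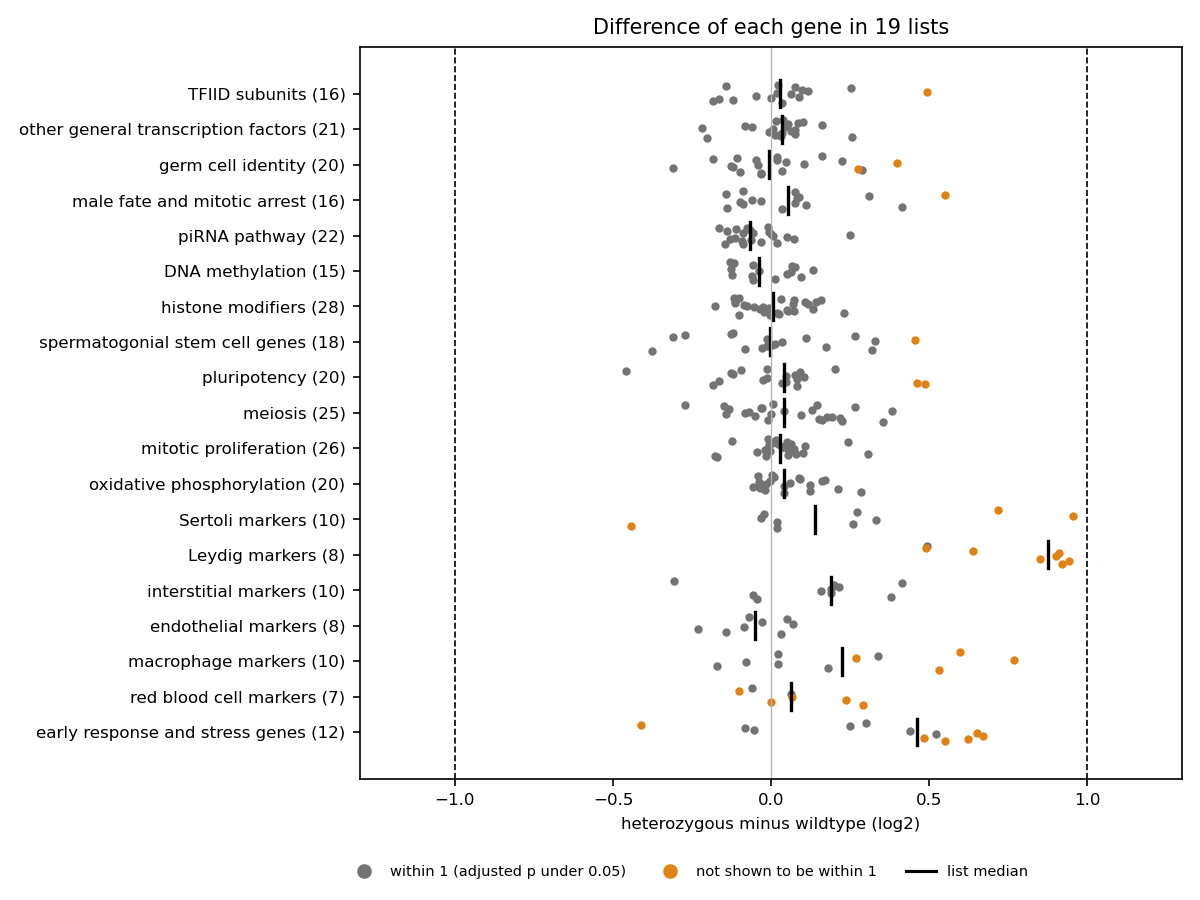
Log2 difference, heterozygous minus wildtype (x axis), of each tested gene in 19 gene lists (rows, number tested in brackets); grey points were shown to lie within 1, orange points were not, black bars are list medians and dashed lines mark 1 in either direction. The 12 lists of germ cell and general functions have medians between −0.07 and 0.05, and the Leydig list lies to the right at a median of 0.88.

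Markers of cells outside the sort were measured beside these lists. The 8 Leydig genes, which make steroids, were all higher in heterozygous libraries, with a median log2 difference of 0.88. None was called, 0 had an unadjusted p under 0.05, and only 1 was within 1, where genes of like level would give 7.9. Their summed level ran from 566 to 2147 CPM in wildtype and from 163.8 to 4298 CPM in heterozygous libraries, where 4 libraries lay above every wildtype one, 2 lay below all of them and 3 lay among them. Cyp17a1, an enzyme of androgen synthesis, ran from 183.0 to 766.0 CPM in wildtype and from 28.9 to 1615 CPM in heterozygous libraries. The level differed between litters, and the 2 lowest sums, 163.8 and 374.8 CPM, were the 2 heterozygous libraries of litter E. In litter G alone the list median was 0.26. In bulk samples, more cells of a type and more RNA per cell cannot be told apart, and the part these markers have in other results was not tested.

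Of 10 Sertoli markers, 7 were within 1, where genes of like level would give 9.1. Inha, the inhibin alpha subunit that Leydig cells also express, had a log2 difference of 0.96 ± 0.41 with an unadjusted p of 0.0321 and an adjusted p of 1.00 in the edgeR fit. Across all 16 libraries, Sox9, the Sertoli fate factor, stood at 3.16 to 12.1 CPM, and Amh, the anti-Müllerian hormone, at 0.195 to 6.53 CPM. Other members were higher, with Cst9 at 7.10 to 51.4 CPM and Clu, which many cell types express, at 83.9 to 233.4 CPM. The summed level ran from 167.4 to 414.6 CPM in wildtype and from 254.7 to 587.2 CPM in heterozygous libraries. Interstitial (10 of 10) and endothelial (8 of 8) markers were within 1, where genes of like level would give 9.5 and 7.7. In litter G the interstitial marker Pdgfrb (−0.78 ± 0.23 SE, unadjusted p = 0.0061, edgeR) was not shown to lie within 1. Nor was the endothelial marker Tie1 (−0.50 ± 0.29). The interstitial marker Pdgfra (−0.11 ± 0.16) and the endothelial marker Pecam1 (−0.24 ± 0.18) were within 1 there. None of these was called. Macrophage markers gave 6 of 10, against 8.9 at like level. Red blood cell markers gave 2 of 7, against 6.7 at like level. The haemoglobin gene Hba-a1, nearly identical to Hba-a2, ran from 23.7 to 675.0 CPM in wildtype and from 27.7 to 1796 CPM in heterozygous libraries. No defining marker of these types followed genotype past the test.

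Early response and stress genes, which respond to handling and dissociation, gave 6 of 12 within 1, against 11.7 at like level. Their median log2 difference was 0.46. Of these 12, Ier2, Junb and Ddit3 had an unadjusted p under 0.05, all higher in heterozygous cells, and none was called. Junb, an AP-1 subunit, ran from 3.32 to 12.8 CPM in wildtype and from 5.53 to 25.9 CPM in heterozygous libraries. The summed level was 771.5 and 850.8 CPM in the 2 wildtype libraries of litter G and 910.6 to 1368 CPM in its 5 heterozygous libraries. This difference was not tested, and the smallest p an exact permutation test can give for 2 against 5 libraries is 0.0952. In litter E, however, the 2 heterozygous libraries held the lowest sums of all 16, 278 and 309.2 CPM. Their part in the other results was not tested.

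The smallest p-values belonged to genes of modest level. Gm10745, a long non-coding RNA gene, had the smallest, with a log2 difference of −1.11 ± 0.21 (unadjusted p = 3.30e-05, adjusted p = 0.766, edgeR). Its wildtype libraries held 5.81 to 14.49 CPM and its heterozygous libraries 3.30 to 7.42 CPM. The 2 wildtype libraries within the heterozygous range, at 5.81 and 6.24 CPM, were those of litter G, and heterozygous libraries of that litter held 3.30 to 5.18 CPM. It was one of the 2 genes called by DESeq2, at an adjusted p of 0.00467, and was named for its p after the values were seen.

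Gdpd3, a lysophospholipase D gene on chr7, was the other, with an adjusted p of 0.0181 in DESeq2. Its wildtype libraries held 1.33, 11.9, 1.84, 2.73, 5.43, 9.69 and 17.0 CPM, and its heterozygous libraries 1.49 to 2.39 CPM with a median of 2.01. The heterozygous values were tight and low, while the wildtype values were split: the 4 of litters F and H held 5.43 to 17.0 CPM and the 3 of litters G and J held 1.33 to 2.73 CPM. The log2 difference of −1.82 ± 0.40 (SE) over all libraries was −0.23 ± 0.31 within litter G. In litter H the wildtype library held 11.9 CPM and the heterozygous one 1.88 CPM.

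Fn3krp, a kinase that acts on glycated proteins, had the largest higher value of the genes named by p, at 2.01 ± 0.47 (SE, unadjusted p = 0.000538, adjusted p = 1.00, edgeR). Its wildtype libraries held 2.04 to 3.87 CPM. The 9 heterozygous libraries held 15.6, 4.04, 17.2, 27.5, 19.8, 4.53, 15.4, 1.43 and 2.04 CPM, so 5 were high and 4 lay near the wildtype level. In litter G, 2 of 5 heterozygous libraries were high, and the log2 difference there was 1.68 ± 0.89 (SE, unadjusted p = 0.106). The split ran within the genotype and within the litter.

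**Figure D5:**
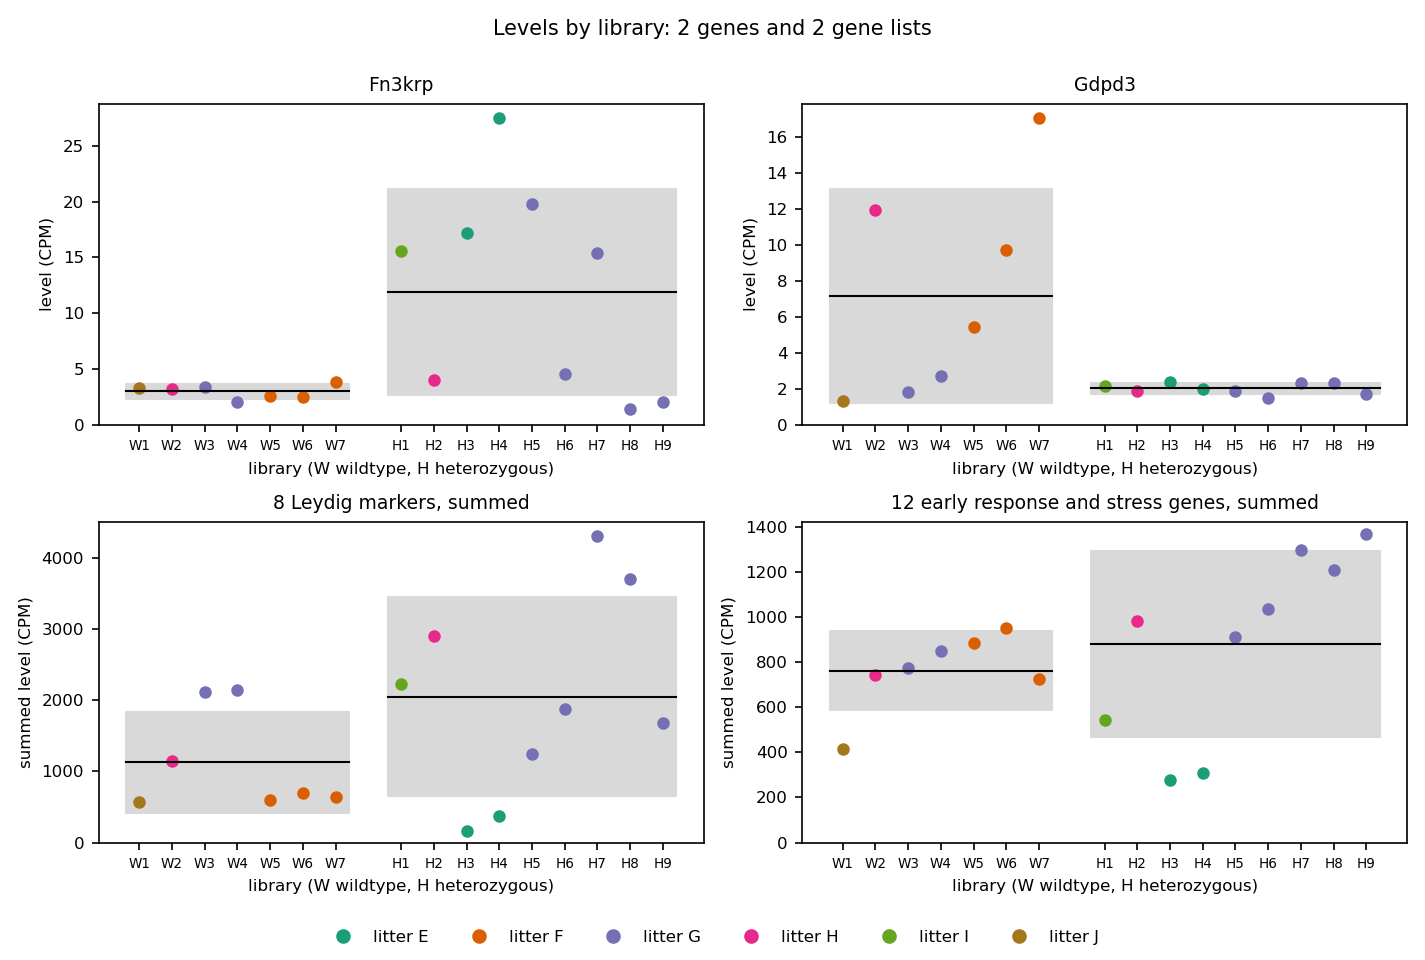
Levels in CPM (y axis, linear, from 0) of Fn3krp and Gdpd3 and summed CPM of 8 Leydig and 12 early response and stress genes in each wildtype (W) and heterozygous (H) library, coloured by litter; the line is the group mean and the grey band 1 SD either side. Fn3krp is high in 5 of 9 heterozygous libraries, Gdpd3 in 4 of 7 wildtype libraries, and both sums are lowest in the heterozygous libraries of litter E.

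Of the lower genes named by the rule, Txnrd3, a testis-enriched thioredoxin and glutathione reductase, had the smallest p after Gdpd3. It ranged from 147.1 to 235.5 CPM in wildtype with a median of 199.7, and from 122.9 to 177.5 CPM in heterozygous libraries with a median of 155.3. Of 7 wildtype libraries, 6 lay above every heterozygous one, and wildtype replicate 4 lay among them. The log2 difference was −0.38 ± 0.10 (SE, unadjusted p = 0.00104, adjusted p = 1.00, edgeR), and it was −0.34 in litter G. It was also shown to lie within 1 (adjusted p = 6.17e-06) and within 1.5-fold (adjusted p = 0.0472).

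Other lower genes of the rule were Fam185a (−0.36 ± 0.10), Cfap299 (−0.72 ± 0.19) and Ifi204 (−0.77 ± 0.23). Ifi204 encodes an interferon-inducible DNA sensor. The remaining higher genes were Mus81, a DNA structure-specific endonuclease (0.49 ± 0.14), the cytochrome P450 gene Cyp2j6 (0.67 ± 0.19), Ankrd35 (0.57 ± 0.17), Ifitm10 (0.52 ± 0.15) and the opposite-strand RNA Etaa1os (0.42 ± 0.13). Whether counting used strand is not given in the sources used here, so reads of Etaa1os and of a gene on the other strand cannot be told apart. These 8 genes had an adjusted p of 1.00 and kept their sign in litter G, which the rule required.

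Within litter G alone, where genotypes share a litter, edgeR called 0 of 24503 genes (0%), with 956 at an unadjusted p under 0.05 and a smallest adjusted p of 0.0658 (2410012E07Rik, 3.27 ± 0.34 SE). With 2 wildtype libraries the median standard error was 0.289, against 0.189 over all 16, and the share shown to lie within 1 fell from 88.9 to 57.3%. A test of whether the genotype difference in litter G departs from that in the other litters called 0 of 23245 genes (0%), with 609 at an unadjusted p under 0.05.

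Litter and genotype were also placed in 1 model. In a fit of litter plus genotype, 578 of 23245 genes, 2.49%, differed between litters at an adjusted p under 0.05, while 0 differed between genotypes. For genotype 2223 genes had an unadjusted p under 0.05, more than the 1162.25 expected if no gene differed, where the fit without litter had 584. Only litters G and H, which held both genotypes, inform the genotype term here. What the excess reflects was not tested. The count between litters rested on single libraries: it was 62 without heterozygous replicate 2 or 3, 126 without wildtype replicate 6, 160, 187, 249, 315 and 361 without heterozygous replicates 4, 9, 7, 6 and 1, and 1028 without wildtype replicate 3. The fit of all 16 showed 16241 genes to lie within 1, and its smallest adjusted p for genotype was 0.261. Among the lists, the litter terms called 7 of 8 Leydig genes, 7 of 12 stress genes and 4 of 7 red blood cell markers. They also called 5 of 20 pluripotency genes, 4 of 20 germ cell genes and 4 of 21 other general transcription factors. Each other list had 0 to 2, among them 1 of 16 TFIID genes, 0 of 15 DNA methylation genes and 0 of 28 histone modifiers. In lists of this size, counts of 0 or 1 do not stand apart from the 2.49% of all genes.

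Genes near Taf4b on chromosome 18 were looked at because embryos chosen for a mutant allele can also share the DNA around it. Of 191 other tested genes within 20 Mb, 0 were called, 4 had an unadjusted p under 0.05, and 166 (86.9%) were within 1, against 88.9% of all genes. Their median log2 difference was −0.03.

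Without the 4 libraries at the high end of the first axis, an alternative added after the data were seen, Taf4b was the 1 gene that edgeR called, at −0.95 ± 0.12 (SE, adjusted p = 0.00708). Those libraries were low in Taf4b themselves, 3 of them in the wildtype group, so this value is not independent of the choice. In that fit 836 genes had an unadjusted p under 0.05 and 18026 were within 1.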

How the data were processed

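Total RNA of sorted prospermatogonia was sequenced, and 16 E16.5 libraries were grouped by the genotype in the labels. The authors deposited counts per gene with no normalization, made with featureCounts per the file names, and TPM values per gene from StringTie. Per the submitters' processing notes, the tools were Trim Galore 0.5.0, FastQC 0.11.5, HISAT2 2.1.0, SAMtools 1.9, StringTie 1.3.3b, Subread 1.6.2 and DESeq2, on GRCm38. Settings, strand and annotation version are not given in the sources used here. Gene names and coordinates came from the deposited TPM tables.

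Of 55536 genes, those passing filterByExpr (23245) were fitted with edgeR 4.0.16 in R 4.3.3 (TMM factors, quasi-likelihood F-test, no covariate), and a gene was called where its p, adjusted by Benjamini and Hochberg, was under 0.05. All adjusted p-values are over all genes tested. SE and 95% intervals use the moderated quasi-likelihood dispersion. A gene was within 1, or within 1.5-fold, when the larger of the 2 one-sided p-values against that bound had an adjusted value under 0.05. The method was tested on simulated counts whose libraries were drawn independently, without litter differences. The simulation therefore cannot show how the bounds behave where libraries share a litter. Taf4b was also tested by an exact permutation test on log2(CPM + 1), with scipy 1.17.1. CPM use TMM-scaled totals. Floors of 3 counts cover counting error only.

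Named genes were Taf4b, Pou5f1, the TFIID list, the member of each other list with the widest and the narrowest interval at 3 log2 CPM or more, and the 6 higher and 6 lower named genes of smallest p at 1 log2 CPM or more with the same sign in litter G, of which 1 is not reported here. Other genes named were chosen after their values were seen, and this holds for the list members given beside them. Members, 19 lists and rules were chosen with earlier results of these data known. Alternatives were other size factors, DESeq2 1.42.0, limma 3.58.1 on log2 TPM, filters, covariates, subsets and each library left out.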

Additional observations from a re-analysis of the deposited data

Results flagged for a closer look

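Single libraries stood far from the rest of their group in 14 of 164 groups of values checked with Dixon's test at its 95% level, and chance alone flags about 1 in 20. Wildtype replicate 1 was low for Tbp (174.1 CPM, next 187.6) and for the summed early response and stress genes (413 CPM, next 725.9). It was high for Dppa3 (493.4 CPM, next 223), the pluripotency marker Dppa5a (113.6 CPM, next 63.04) and the chromosomal passenger gene Birc5 (42.94 CPM, next 27.09). Wildtype replicate 5 was high for Taf7l (145.7 CPM, next 119.2), and wildtype replicate 3 was high for the summed DNA methylation genes (2487 CPM, next 2174).

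Heterozygous replicate 1 was high for Hba-a1 (1796 CPM, next 191), Alas2, the haem synthesis enzyme of red cells (128 CPM, next 32.9), the summed red blood cell markers (4203 CPM, next 511.6) and the pericyte receptor Pdgfrb (52.69 CPM, next 24.62). Heterozygous replicate 2 was high for Gtf2a2 (45.19 CPM, next 30.88) and Gtsf1 (462.4 CPM, next 308.1). Heterozygous replicate 5 was low for Egr4 (20.19 CPM, next 100.8).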

How the results depend on the processing

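The count of 0 called genes held in all 16 fits that left out 1 library and in 10 of 12 fits with another setting or subset. The DESeq2 Wald test called 2 genes and the fit without the 4 libraries at the high end of the first axis called 1. The count within 1 was 20086 to 20621 with 1 library left out, 19076 with no filter on low counts and 16241 with litter as a covariate. By limma it was 22944 on log2(TPM + 1) and 20366 on log2(TPM + 0.1). Adding 1 shrinks the differences of genes at low TPM more than adding 0.1 does. With a bound of 1.5-fold the count was 13269. In litter G, 2 genes (Gm29560 and 2410012E07Rik) were called with no filter, and 0 to 1 with 1 library left out, where the count within 1 was 9752 to 13746. Genes that differed between litters numbered 62 to 1028 with 1 library left out, and genes whose genotype difference departed in litter G numbered 0 to 2. The Taf4b difference ran from −0.763 to −0.498 with 1 library left out, was −0.826 in litter G (p = 0.286, exact permutation test) and −0.850 within litters G and H (p = 0.167, exact permutation test, 42 arrangements). The within-litter designs hold fewer libraries, and the cause of these shifts was not tested. Over the named genes, 661 of 704 values counted as the same, and 995 of 1024 did with 1 library left out. For a gene within 1, the same means that it stayed within 1, whatever its sign. For the others it means not within 1, not called and moved by no more than the relative wildtype SD. Direction was not checked.

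Replicate numbers did not pair the groups. The mean of each genotype was subtracted from each gene, and the values that remained were correlated between same-numbered libraries. These correlations ran from −0.469 to 0.31 over 7 pairs. With a replicate block, 0 genes were called, 197 had an unadjusted p under 0.05, 19221 were within 1, and Taf4b differed by −0.70 (edgeR, unadjusted p = 0.00537). The bounds were widest for weakly expressed genes, and the parts that low counts and spread between libraries have in this were not tested.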
